A study of Mus musculus with 6 samples.

Results

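The genes described here encode, with few exceptions, solute carriers. These membrane proteins move amino acids, sugars, nucleosides, vitamins, metals and ions across plasma, lysosomal, endosomal, Golgi and endoplasmic reticulum membranes. The genes were taken from a table of read counts of mouse bone marrow derived macrophages (BMDMs, macrophages grown in culture from bone marrow). They are the rows whose symbol begins with Slc and a family number. The mitochondrial Slc25 carriers, the Slco genes and 15 genes listed by name, among them Slc2a1, Slc3a2 and Slc40a1, were left out of the selection. Of the 258 rows left, 165 had at least 60 counts summed over all libraries, among 16519 genes in all. They were selected on this summed count, a level and not a difference between genotypes, which is given only as a description. The count reached 60 in KO alone for 155 of them and in WT alone for 152. Of the 165, 4 share the symbol but are not carriers, among them Slc9a3r1, Slc9a3r2 and Slc7a6os. They are included in the totals given for the solute carriers.

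The KO macrophages (3 libraries) were Trmt61a f/f LysM-Cre, and the WT macrophages (3 libraries) were Trmt61a f/f without Cre. LysM-Cre expresses Cre recombinase from the Lyz2 locus, which is active in macrophages and neutrophils and not in macrophages alone. The protein made from Trmt61a is the catalytic part of the enzyme that places N1-methyladenosine in tRNAs. Both genotypes carry the floxed allele and only KO carries Cre, so an effect of the deletion and an effect of Cre cannot be told apart. The labels give neither age, sex nor any stimulus, and they leave unsaid if each library had its own mouse or culture, so the p-values reflect library-to-library spread alone, and that spread may be technical.

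Macrophages depend on these carriers in several ways. Solute carriers move substrates down a gradient, against another solute, or with protons or sodium, and do not hydrolyse ATP. In macrophages they feed arginine to nitric oxide synthase and arginase. They also return the amino acids, nucleosides and sugars of digested prey from the lysosome to the cytosol. Some contribute to the pH of phagosomes and endosomes. Slc15a3 and Slc15a4, peptide and histidine carriers of the lysosome, also take part in signalling by innate receptors for nucleic acids.

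The libraries held between 37021855 counts (WT 1) and 41033179 counts (WT 3). Trmt61a had 0.530, 0.755 and 0.539 CPM (counts scaled to a library of common size) in KO 1, 2 and 3, against 4.96, 3.89 and 5.06 CPM in WT 1, 2 and 3, with no overlap between genotypes (log2 fold change -2.92, standard error 0.28, edgeR adjusted p = 0.00219; exact two-sided permutation p = 0.1, the smallest that 3 against 3 libraries allow). Macrophage markers (10 of 10 in the table, among them Adgre1, Csf1r and Cd68) summed to between 12299 and 14019 CPM in KO and between 12524 and 13576 CPM in WT. Neutrophil markers summed to between 1628 and 2604 CPM in KO and between 1649 and 2993 CPM in WT, and the stromal and endothelial list to between 122 and 268 CPM in KO and between 119.98 and 175 CPM in WT. Of the 9 tested stromal and endothelial genes, 8 had positive log2 fold changes, as had 5 of 11 neutrophil and 4 of 10 macrophage genes, with 0 called in each list. Cell cycle genes summed to 581 CPM in KO 1 and 533 CPM in WT 2, and to between 685 and 898 CPM in the other libraries, so that KO 1 and WT 2 were the lowest. All 10 cell cycle genes had positive log2 fold changes, 0 of them called. Erythroid and megakaryocyte markers summed to between 171 and 197 CPM in KO and between 149 and 156 CPM in WT, without overlap. Of these, 5 of 5 tested had positive log2 fold changes and 0 were called. The other lists went the other way. Positive log2 fold changes were seen for 1 of 5 mast cell and basophil, 1 of 4 lymphoid and 1 of 4 dendritic cell genes. Again 0 were called. In bulk RNA, fewer cells of a type and less RNA per cell cannot be told apart.

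The carrier RNA of these macrophages was concentrated in few genes. As a share of the CPM summed over all 165 genes, Slc6a6 alone held 16.7% and the 5 most abundant held 36.1%. Mean CPM was at least 100 for 28 genes, from 10 to 100 for 82, from 1 to 10 for 33 and below 1 for 22. The summed level of all 165 was 11332, 10932 and 10853 CPM in KO 1, 2 and 3, against 10936, 11157 and 10639 CPM in WT 1, 2 and 3. The genotypes overlapped in this sum.

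Levels are compared between genes per length, as CPM per kilobase of merged exons (CPM per kb). Slc6a6, the taurine transporter, stood at 219 CPM per kb in KO and 216 in WT, above every other solute carrier described here. Its CPM values were 1993, 1804 and 1751 in KO and 1829, 1909.9 and 1732 in WT, with the highest value in KO 1 and the genotypes overlapping. Slc43a2, which carries large neutral amino acids, followed with 90.1 CPM per kb in KO and 88.6 in WT. Slc15a3, the lysosomal histidine and peptide carrier, had 86.2 CPM per kb in KO and 76.5 in WT. The next was Slc37a2, a sugar phosphate exchanger of the endoplasmic reticulum, at 70.1 CPM per kb in KO and 68.8 in WT, and its values by library spread widely, with 424, 459.7 and 513 CPM in KO and 466, 416 and 489 CPM in WT.

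Zinc and proton carriers came next in this order. Slc39a1, a zinc importer of the plasma membrane, had 70.7 CPM per kb in KO and 67.6 in WT. Slc9a3r1 is no carrier but a scaffold protein that binds sodium-proton exchangers and shares their symbol, and it had 64.2 CPM per kb in KO and 66.5 in WT. The endosomal sodium-proton exchanger Slc9a9 had 57.3 CPM per kb in KO and 55.5 in WT. Slc39a7, which releases zinc from the endoplasmic reticulum, had 50.5 CPM per kb in KO and 46.7 in WT. Slc46a3, a lysosomal carrier, had 44.4 CPM per kb in KO and 45.1 in WT. Slc29a3, which exports nucleosides from the lysosome, had 42.5 CPM per kb in KO and 43.1 in WT. In the GENCODE M21 annotation, 49 of the 165 genes overlap an exon of another gene, 41 of them one on the opposite strand. Reads of such stretches cannot be assigned with certainty. Slc39a7 is among them, where the longest overlap of a pair of exons is 800 bases, with the transcript Gm20427 on the same strand. So are Slc6a6, Slc43a2, Slc37a2 and Slc15a3, with longest overlaps of 117, 672, 241 and 1529 bases on the opposite strand. KO and WT values overlapped for each of the 10 genes highest per length except Slc15a3 and Slc39a7. From Slc43a2 downwards, each gene's range over the 6 libraries overlapped that of its neighbour in the order, and the lowest library of Slc6a6 lay above every library of Slc43a2.

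**Figure D1:**
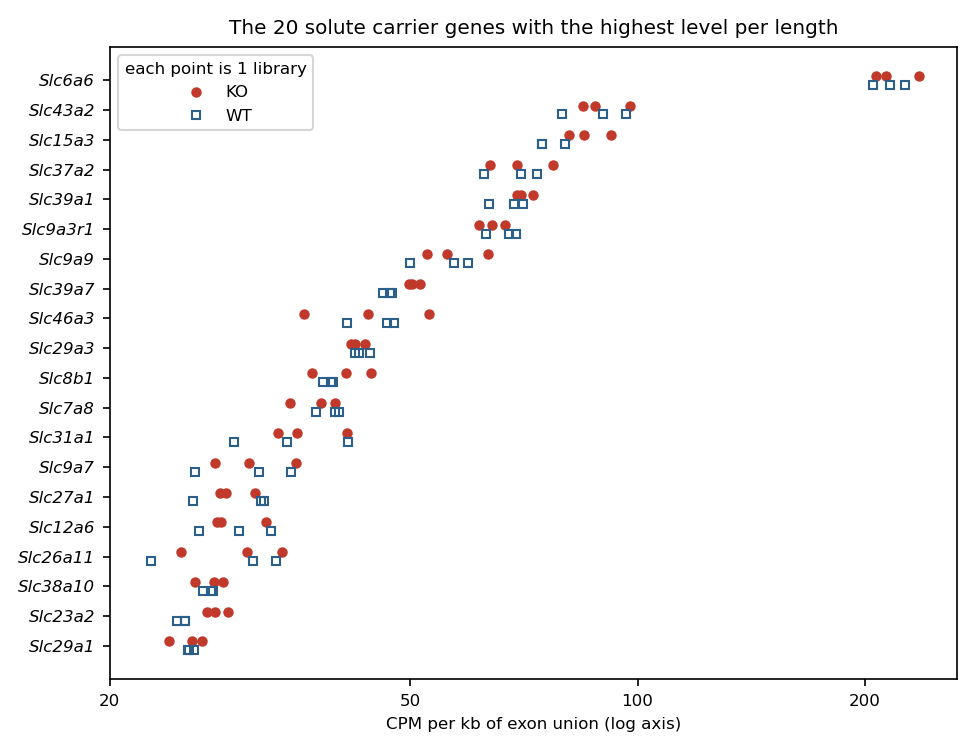
Level per length (CPM per kb of merged exons, log axis) of the 20 solute carrier genes with the highest mean, with KO libraries as filled circles and WT libraries as open squares. Slc6a6 stands apart from the other carriers, at 219 CPM per kb in KO and 216 in WT.

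The deposited annotation places 11 of the 165 genes in the lysosomal membrane and 99 in the plasma membrane, a property that the selection did not use. The lysosomal set (Slc15a3, Slc15a4, Slc17a5, Slc26a11, Slc29a3, Slc2a6, Slc35f6, Slc38a9, Slc39a14, Slc39a8 and Slc66a1) had a median level of 18.4 CPM per kb over all libraries, and the plasma membrane set 4.28. A gene may carry both terms. The lysosomal term also misses some carriers described here as lysosomal, such as Slc46a3, Slc36a1 and Slc49a4. Slc15a4 had 113, 92.8 and 86.0 CPM in KO and 100.4, 102 and 91.9 CPM in WT, and its log2 fold change was -0.01 with a 95% interval from -0.23 to 0.20.

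Short promoter sequences (250 bases before to 50 after the annotated start, RefSeq, GRCm38.p6) were found for 124 of the 165 genes; where a gene has several, the first listed was used. They were searched on both strands for GGGCGG (the GC box bound by Sp1), CACGTG (the E-box), TCACGTGA (an E-box extended towards the CLEAR element bound by TFEB, which contains CACGTG) and GAGGAAGT (a motif of PU.1, the macrophage lineage factor). The GC box occurred in 83 of 124 promoters (66.9%), against 63.6% of the 10104 tested genes that have a promoter sequence. The E-box occurred in 11.3% against 10.1%, the CLEAR-type motif in 2.42% against 1.97% and the PU.1-type motif in 4.84% against 3.37%. These shares describe letters in a short window and are given with no test. The 3 promoters with the CLEAR-type motif were those of Slc36a1, Slc37a3 and Slc35a5. Of the lysosomal membrane set above, which does not hold Slc36a1, 8 genes had a promoter sequence. In these 8, 0 held the CLEAR-type motif and 0 the E-box. Shown first are the promoters of the genes with a sequence that had the smallest unadjusted p in the comparison that follows, with GC boxes in capitals; that of Slc23a2 holds none. The last is that of Slc36a1, a proton-coupled amino acid carrier of the lysosome, with the CLEAR-type motif in capitals.
Slc45a3 (chr1:131962665-131962964, plus strand): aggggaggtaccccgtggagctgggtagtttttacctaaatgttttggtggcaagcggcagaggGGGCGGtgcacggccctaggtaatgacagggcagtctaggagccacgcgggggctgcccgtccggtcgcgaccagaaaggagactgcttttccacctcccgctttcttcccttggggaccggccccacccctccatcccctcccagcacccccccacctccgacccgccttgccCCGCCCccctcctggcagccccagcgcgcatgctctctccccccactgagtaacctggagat
Slc16a9 (chr10:70245026-70245325, plus strand): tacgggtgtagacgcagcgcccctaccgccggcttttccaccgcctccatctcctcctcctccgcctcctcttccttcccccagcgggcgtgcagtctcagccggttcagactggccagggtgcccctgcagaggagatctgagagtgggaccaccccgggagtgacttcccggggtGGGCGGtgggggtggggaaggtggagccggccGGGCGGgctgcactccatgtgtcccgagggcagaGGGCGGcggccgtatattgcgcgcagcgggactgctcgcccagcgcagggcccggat
Slc23a2 (chr2:132145271-132145570, minus strand): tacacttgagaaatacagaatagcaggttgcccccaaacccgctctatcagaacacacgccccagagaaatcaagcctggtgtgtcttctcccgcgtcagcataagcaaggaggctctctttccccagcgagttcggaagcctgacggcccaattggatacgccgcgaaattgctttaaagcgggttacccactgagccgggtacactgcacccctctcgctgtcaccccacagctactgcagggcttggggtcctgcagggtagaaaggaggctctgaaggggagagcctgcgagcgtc
Slc36a1 (chr11:55204090-55204389, plus strand): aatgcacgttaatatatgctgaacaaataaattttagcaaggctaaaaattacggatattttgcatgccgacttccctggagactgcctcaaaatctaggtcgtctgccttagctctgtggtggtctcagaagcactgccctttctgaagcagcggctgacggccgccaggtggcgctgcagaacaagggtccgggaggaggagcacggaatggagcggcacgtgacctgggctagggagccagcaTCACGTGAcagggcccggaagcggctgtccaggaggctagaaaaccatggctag

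The first 2 of these genes differed most by p between genotypes. Slc36a1, whose promoter holds the CLEAR-type motif, had 140.4, 135 and 125 CPM in KO and 148, 143 and 121 CPM in WT, overlapping between genotypes (log2 fold change -0.04, 95% interval from -0.21 to 0.14).

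The comparison of KO with WT asks whether the transcripts of any carrier differ between Trmt61a f/f macrophages with and without LysM-Cre. No solute carrier passed the threshold. Of 164 tested genes (Slc38a3 fell below the filter on low counts), 0 had a Benjamini-Hochberg adjusted p under 0.05 in edgeR, where 0.0317% of all 12605 tested genes did, and DESeq2 and limma voom also called 0. Without adjustment, 9 genes in DESeq2 and 8 in limma voom had a p under 0.05. The share over all tested genes was not taken for those methods, so these counts cannot be set against it. In edgeR 9 genes had an unadjusted p under 0.05 (5.49%), against 3.10% of all tested genes. Of those 9, 2 had higher values in KO (1.22% of the members, against 1.46% of all tested genes) and 7 lower values (4.27%, against 1.64%). For 19 genes (11.6%) the values of KO and WT did not overlap, against 8.65% of all tested genes. Of these, 8 were higher in KO (4.88%, against 4.05% of all tested genes) and 11 lower (6.71%, against 4.59%). The members divided evenly, with 82 positive and 82 negative log2 fold changes and a median of 0.00080, against a median of 0.000084 over all tested genes. The median size of the log2 fold change was 0.08 for the members and 0.07 for all tested genes.

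The intervals show how large a difference the data still allow. Of the 143 members that averaged 1 CPM or more, 116 (81.1%) had their 95% interval inside 1.5-fold either way and 130 (90.9%) inside 2-fold. Over all tested genes at that level the shares were 80.4% within 1.5-fold and 93.5% within 2-fold. Slc29a3 had one of the narrow intervals: its values were 247, 254 and 243 CPM in KO and 246, 258 and 249 CPM in WT, and its log2 fold change was -0.02 (95% interval from -0.13 to 0.10).

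**Figure D2:**
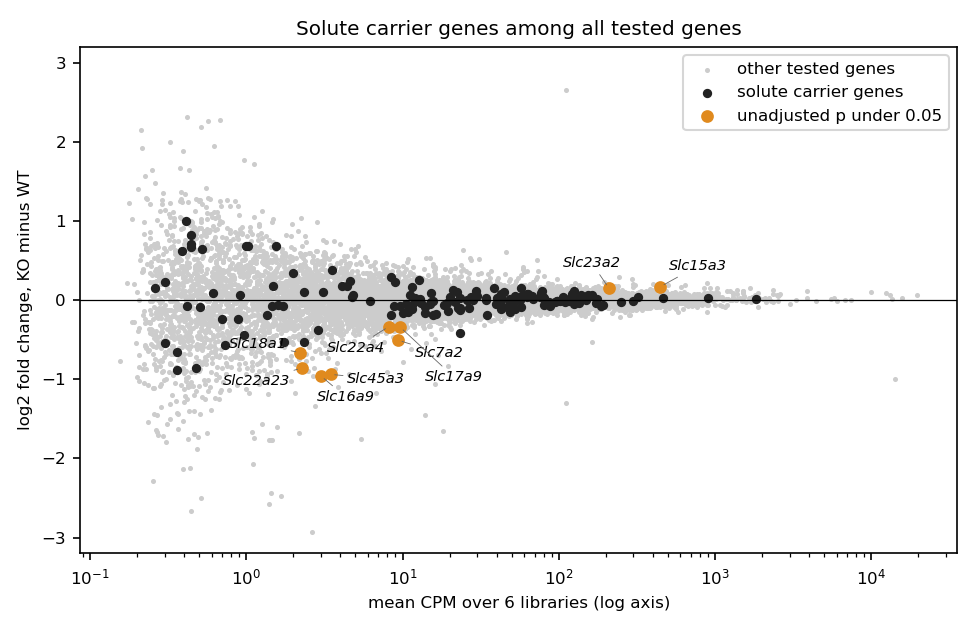
Log2 fold change (KO minus WT) against mean CPM over the 6 libraries (log axis) for all tested genes (grey), the 164 tested solute carrier genes (black) and the 9 of them with an unadjusted p under 0.05 (orange). The black points lie on both sides of 0 with a median of 0.00080, and 7 of the 9 orange points lie below 0.

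Of the 9 genes with an unadjusted p under 0.05, all with an edgeR adjusted p of 0.99995, those lower in KO were mostly of low level. Slc45a3, a member of the sugar carrier family first known as a prostate protein, had 1.88, 2.49 and 2.74 CPM in KO, against 3.98, 4.57 and 5.09 CPM in WT. Every KO value lay below every WT value, with between 71 and 112 counts in KO and between 147 and 209 counts in WT. The log2 fold change was -0.94 (standard error 0.23, edgeR unadjusted p = 0.00192), and it stayed between -1.05 and -0.79 over 15 alternatives, with an adjusted p between 0.124 (DESeq2) and 0.99995. The gene (chromosome 1, 131962915 to 131982972, GRCm38) shares exon sequence with the transcript Gm29103 on the same strand.

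Slc16a9, a monocarboxylate carrier family member known in human for carnitine and creatine, had 1.67, 2.57 and 1.88 CPM in KO, against 3.04, 4.72 and 4.14 CPM in WT. The genotypes did not overlap, and the log2 fold change was -0.96 (standard error 0.27, edgeR unadjusted p = 0.00437). Over 15 alternatives the unadjusted p stayed below 0.05 for both Slc16a9 and Slc45a3. Slc16a9 (chromosome 10, 70245276 to 70285951) shares exon sequence with Gm7097 and Gm9877 on the opposite strand, and whether counting used strand is not given in the sources.

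Slc7a2, the carrier for arginine and other cationic amino acids that supplies nitric oxide synthase and arginase in activated macrophages, had 6.55, 9.37 and 7.27 CPM in KO, against 11.3, 12.4 and 9.23 CPM in WT. KO 2 lay just above WT 3, so the genotypes overlapped. The log2 fold change was -0.51 with a 95% interval from -0.88 to -0.13 (edgeR unadjusted p = 0.0131). Slc7a2 overlaps Gm26584 on the opposite strand (longest overlap of a pair of exons 473 bases). Slc7a7 and Slc7a8, which carry cationic and neutral amino acids as partners of the heavy chain Slc3a2, had log2 fold changes of -0.08 and -0.06, each with its interval including 0. Slc43a2 had 981, 883 and 850.5 CPM in KO and 904, 969 and 796 CPM in WT, with a log2 fold change of 0.02.

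Carriers of organic ions and vesicles make up the other genes lower in KO. Slc22a4, the ergothioneine carrier, had 6.95, 7.10 and 7.69 CPM in KO, against 9.16, 8.74 and 9.47 CPM in WT, with no overlap (log2 fold change -0.33, edgeR unadjusted p = 0.0318). Its neighbour and paralog on chromosome 11, Slc22a21, a carnitine carrier in mouse, went the other way with 4.22, 3.73 and 4.11 CPM in KO and 3.12, 2.54 and 3.56 CPM in WT (0.39, edgeR unadjusted p = 0.102). Counts of such paralogs are uncertain where they share reads. Slc22a23, an organic ion carrier family member of unknown substrate, had 1.48, 1.06 and 2.28 CPM in KO, against 2.57, 3.74 and 2.43 CPM in WT (-0.86, edgeR unadjusted p = 0.0263). KO 3 and WT 3 were nearly equal there.

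Slc17a9, which loads ATP and other nucleotides into secretory vesicles and lysosomes, had 7.93, 9.34 and 8.27 CPM in KO, against 10.4, 11.6 and 10.3 CPM in WT. Each KO library lay below each WT library (log2 fold change -0.34, standard error 0.13, edgeR unadjusted p = 0.0256). Slc18a1, a vesicular monoamine carrier, had 1.54, 1.84 and 1.74 CPM in KO and 2.63, 1.91 and 3.56 CPM in WT (log2 fold change -0.66, 95% interval from -1.32 to -0.0031). Its KO 2 and WT 2 values were almost the same. Apart from Slc45a3 and Slc16a9, each of the 9 genes had an unadjusted p of 0.05 or more in some of the 15 alternatives. The p stayed under 0.05 in 13 of them for Slc7a2 (largest 0.126), in 12 for Slc23a2 (largest 0.0583) and in 12 for Slc15a3 (largest 0.101). It did so in 11 for Slc17a9 (largest 0.180), in 11 for Slc22a23 (largest 0.167), in 10 for Slc22a4 (largest 0.0859) and in 7 for Slc18a1 (largest 0.235).

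**Figure D3:**
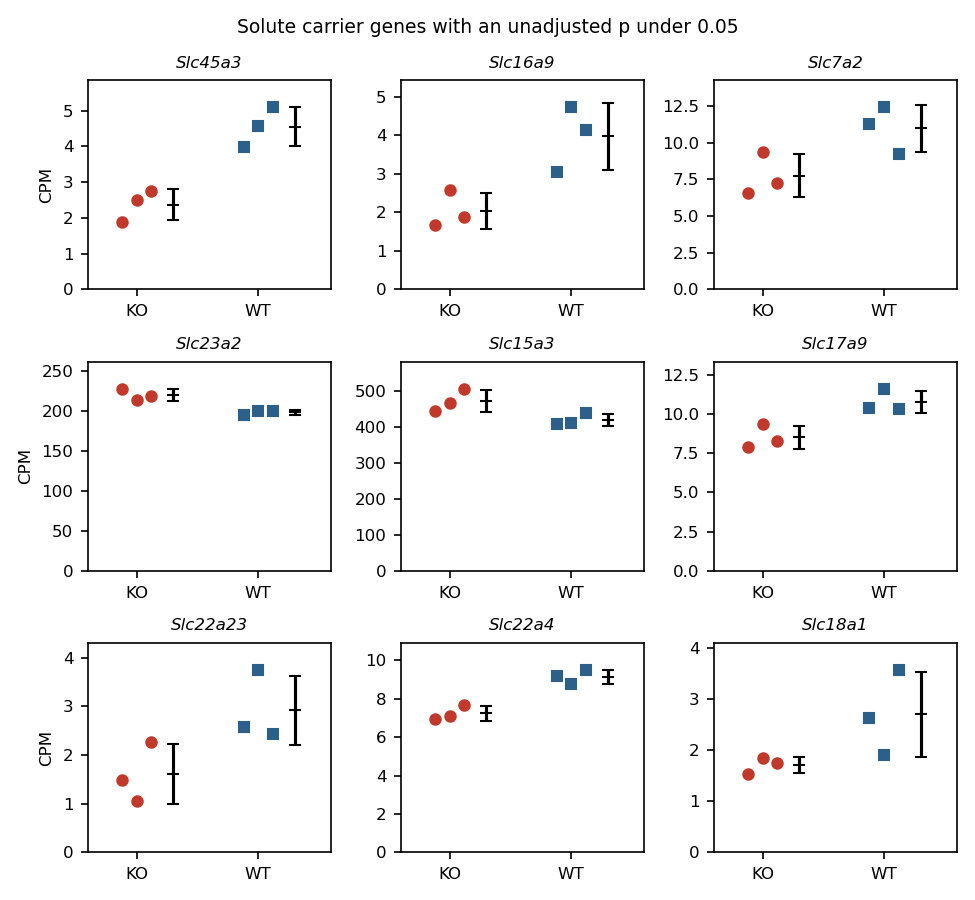
CPM by library of the 9 solute carrier genes with an unadjusted p under 0.05, with KO (circles) left of WT (squares); bars are the mean and SD of 3 libraries, and each axis starts at 0. KO and WT points do not overlap in 8 of the panels; in that of Slc7a2, KO 2 (9.37 CPM) lies above WT 3 (9.23 CPM).

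The 2 genes higher in KO at that unadjusted threshold were abundant and the differences small. Slc23a2, the sodium-coupled vitamin C carrier, had 228, 214 and 219 CPM in KO, against 195, 200.2 and 200.1 CPM in WT. No KO library fell into the WT range, and the log2 fold change was 0.15 with a 95% interval from 0.03 to 0.27 (edgeR unadjusted p = 0.0159). Slc15a3 had 445, 467 and 507 CPM in KO, against 410.3, 411 and 440.0 CPM in WT. KO 1 exceeded WT 3 by a narrow margin, and the log2 fold change was 0.17 with a 95% interval from 0.03 to 0.31 (edgeR unadjusted p = 0.0217). Slc15a3 (chromosome 19, 10842544 to 10857915 in RefSeq) overlaps Tmem132a on the opposite strand. By GENCODE M21 the longest overlap of a pair of exons is 1529 bases. By RefSeq the shared stretch is much shorter, as Tmem132a begins at 10857829. Reads of the shared stretch could be assigned to either or dropped, and the annotation release used for counting is not given. Tmem132a itself had 10.7, 11.8 and 10.3 CPM in KO and 11.1, 8.99 and 10.96 CPM in WT (log2 fold change 0.08, 95% interval from -0.22 to 0.37).

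Amino acid and peptide carriers showed no common direction. Of 27 tested, 11 had positive and 16 negative log2 fold changes, 0 passed, and the median was -0.01. Summed over the class the level was 4654, 4389 and 4291 CPM in KO and 4402, 4549 and 4146 CPM in WT, overlapping between genotypes. Sugar carriers (11 tested, 4 positive, median -0.09) included Slc2a6, a lysosomal glucose carrier family member induced in inflammatory macrophages, with 19.9, 20.1 and 15.6 CPM in KO and 18.3, 23.1 and 19.9 CPM in WT. Its log2 fold change was -0.14 with an interval that includes 0.

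Zinc carriers comprise importers into the cytosol (Slc39) and exporters from it (Slc30). Of 19 tested genes 13 had positive log2 fold changes and 0 passed, with a median of 0.04. Slc39a7 had 129, 133 and 130.0 CPM in KO, against 122, 121 and 119 CPM in WT. All KO values were above all WT values, and the log2 fold change was 0.11 (95% interval from -0.00017 to 0.23, edgeR unadjusted p = 0.0503). Slc39a13, a zinc carrier of the secretory pathway, had 30.4, 32.1 and 34.7 CPM in KO and 34.7, 34.5 and 41.5 CPM in WT (-0.19, edgeR unadjusted p = 0.0636). KO 3 lay within the WT range. The zinc exporter Slc30a1 had 61.9, 61.5 and 68.6 CPM in KO and 56.6, 60.3 and 65.4 CPM in WT, with a log2 fold change of 0.07.

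Nucleotide sugar carriers and related carriers of the Golgi and endoplasmic reticulum were more often lower than higher, with no call. Of 21 tested, 14 had negative log2 fold changes, the median was -0.04 and 0 had an unadjusted p under 0.05. The class was formed by gene family and not all of it carries activated sugars. It also holds the orphan Slc35d3 and Slc35f6 of the lysosomal set. Slc35a3, a carrier of UDP-N-acetylglucosamine, had 47.9, 51.3 and 52.2 CPM in KO and 51.1, 56.2 and 56.8 CPM in WT (-0.12). Slc35c1, the GDP-fucose carrier of the Golgi, had 46.98, 51.5 and 40.0 CPM in KO and 49.4, 54.8 and 49.5 CPM in WT (-0.15). Both pairs of groups overlapped.

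Among ion exchangers, sodium-proton exchangers had 6 of 8 positive log2 fold changes and a median of 0.02. Slc9a5 had 1.30, 2.22 and 2.25 CPM in KO and 2.57, 2.64 and 3.09 CPM in WT (-0.52, edgeR unadjusted p = 0.0960), and Slc9b2, with a mean of 0.279 CPM in KO and of 0.443 CPM in WT, had -0.66 with an interval that includes 0. Bicarbonate and chloride carriers were divided evenly, 6 positive and 6 negative. There Slc12a2, the sodium-potassium-chloride cotransporter that sets cell volume, had 9.23, 9.14 and 9.99 CPM in KO and 10.2, 11.2 and 10.2 CPM in WT, without overlap (-0.16, 95% interval from -0.43 to 0.11). Slc4a11, a borate carrier family member that conducts protons, was low, at 0.663, 1.54 and 1.47 CPM in KO and 0.623, 0.377 and 1.27 CPM in WT.

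The 4 calcium exchangers all had positive log2 fold changes, from 0.04 to 0.11. Slc8b1, the sodium-calcium exchanger of the mitochondrial inner membrane, had 154, 142 and 128 CPM in KO and 136, 137 and 133 CPM in WT. Slc8a1, its plasma membrane relative, had 138, 132 and 133 CPM in KO and 129, 139 and 119 CPM in WT. Groups overlapped for both. For copper, Slc31a1, the high-affinity importer, had 176, 151 and 143 CPM in KO and 147, 177 and 125 CPM in WT, its highest values being in KO 1 and WT 2. Slc41a2, a magnesium carrier family member, had a log2 fold change of 0.03.

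Vitamin carriers had 4 of 7 positive log2 fold changes and a median of 0.06. Beside Slc23a2, the proton-coupled folate carrier Slc46a1 had 8.62, 9.85 and 10.3 CPM in KO and 8.62, 7.84 and 8.11 CPM in WT (0.23, edgeR unadjusted p = 0.122), with KO 1 level with WT 1. Nucleoside carriers had 1 of 4 positive. Slc28a2, a concentrative nucleoside carrier with a close copy in the table (Slc28a2b), had -0.13, and Slc29a2, an equilibrative one with a mean of 1.58 CPM in KO and of 1.39 CPM in WT, had 0.18. Lipid and choline carriers had 5 of 8 positive, with Slc44a2, a choline carrier family member, at -0.05 and Slc27a6, a fatty acid transport protein, at -0.85 on 10, 16 and 14 counts in KO and 40, 8 and 23 counts in WT. Of the 13 carriers of monocarboxylates, citrate and sulfate, 6 had positive log2 fold changes.

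Organic ion carriers had the lowest class median, -0.16 over 7 genes, of which 2 were positive. Lysosomal and vesicular carriers of families 17, 18 and 66 had 3 of 8 positive and a median of -0.08, with Slc66a2 at 39.3, 38.7 and 44.01 CPM in KO and 34.3, 38.6 and 37.2 CPM in WT (0.15, edgeR unadjusted p = 0.0885). The scaffold gene Slc9a3r2 had the largest positive log2 fold change of the named genes, 0.999, on 11, 17 and 38 counts in KO and 15, 12 and 5 counts in WT, with a 95% interval from -0.42 to 2.41. In the remaining small class Slc6a4, the serotonin transporter, had 0.69 and Slc49a4, a lysosomal carrier, 0.08, both with intervals that include 0.

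**Figure D4:**
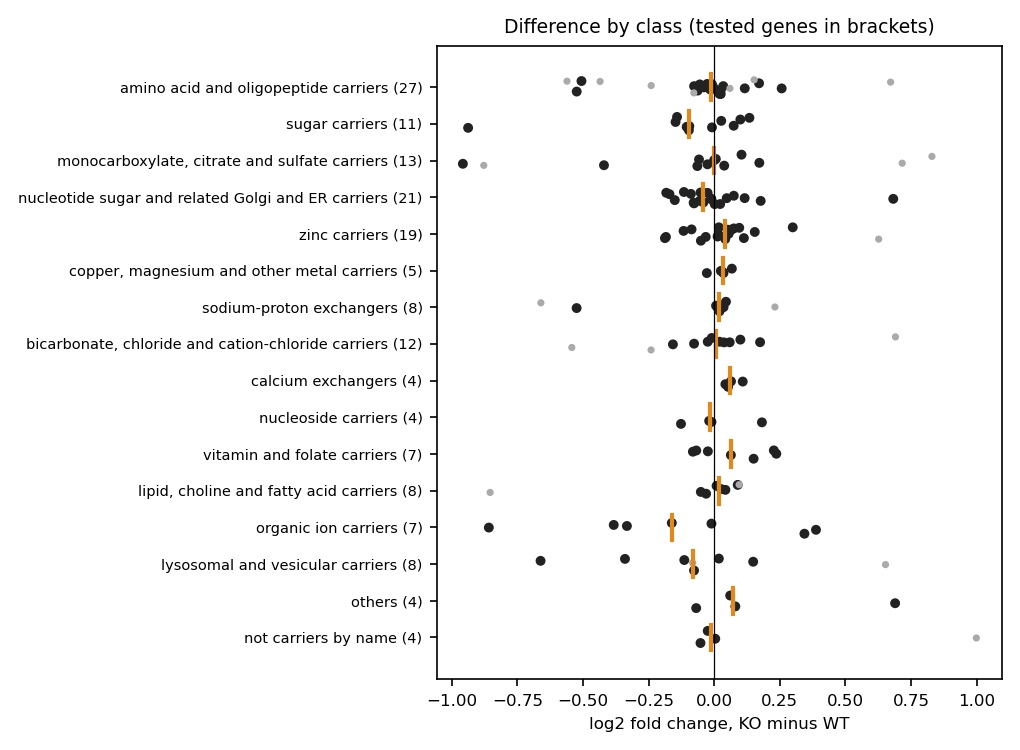
Log2 fold change (KO minus WT) of each tested solute carrier gene by class, for classes with at least 4 tested genes; large black points are genes averaging 1 CPM or more, small grey points lower ones, and orange lines class medians. Medians lie between -0.16 (organic ion carriers) and 0.07 (other carriers).

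Some carriers varied widely between libraries of 1 genotype. The standard deviation within genotypes of log2(CPM + 0.5) had a median of 0.122 over the 143 genes with at least 1 CPM, against 0.115 over all tested genes at that level, and was above 0.5 for 4 genes, which are named for that reason after their values were seen. Slc15a2, a carrier of di- and tripeptides across the plasma membrane, had 9.94, 17.4 and 14.4 CPM in KO, against 4.63, 24.8 and 5.45 CPM in WT. WT 2 was the highest library and WT 1 and WT 3 the lowest, on 171 to 987 counts. Its log2 fold change was 0.26 (95% interval from -1.69 to 2.20); without WT 2 it was 1.46 (edgeR adjusted p = 0.226), and without KO 1 and WT 2 together, a choice made once the data had been seen, it was 1.65 (edgeR adjusted p = 0.00029).

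Slc13a3, the sodium-coupled carrier of dicarboxylates such as succinate and itaconate, had 11.6, 19.2 and 29.2 CPM in KO, against 16.1, 15.7 and 48.5 CPM in WT. KO 3 and WT 3 were the highest of their genotypes, and its log2 fold change of -0.42 became 0.33 without WT 3. Slc35d3, an orphan member of the nucleotide sugar carrier family, had 0.663, 1.56 and 1.59 CPM in KO and 0.407, 0.377 and 1.58 CPM in WT. Slc6a4 had 1.70, 2.34 and 1.66 CPM in KO and 1.36, 0.327 and 1.85 CPM in WT, with its lowest value in WT 2. The neutrophil marker sum was 1628, 2565 and 2604 CPM in KO 1, 2 and 3 and 2111, 1649 and 2993 CPM in WT 1, 2 and 3. The cell cycle sum was 581, 766 and 898 CPM in KO and 685, 533 and 869.9 CPM in WT, so that both sums, like Slc13a3, were highest in WT 3 or KO 3; their part in these values was not tested.

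**Figure D5:**
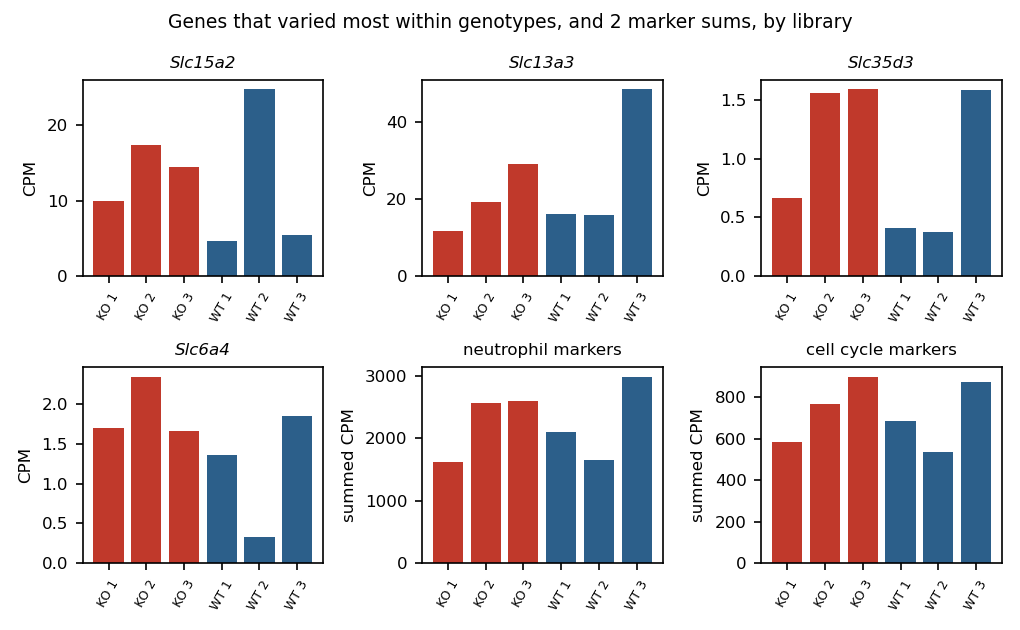
CPM by library of the 4 solute carrier genes that varied most within genotypes, and the summed CPM of the neutrophil and cell cycle lists, with KO bars (red) left of WT bars (blue). Slc15a2 is highest in WT 2 (24.8 CPM) and Slc13a3 in WT 3 (48.5 CPM).

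Carriers known under other names and partner proteins of carriers were examined beside the members. Of 30 listed, 27 were in the table and 24 were tested. Of these, 12 had positive and 12 negative log2 fold changes, and 0 passed. Only 1 had an unadjusted p under 0.05, where 3.10% of all tested genes did. That gene was Flvcr1, a choline and haem carrier, with 91.0, 88.5 and 90.5 CPM in KO and 84.3, 77.1 and 81.7 CPM in WT. The genotypes did not overlap, as for 8.65% of all tested genes, and the log2 fold change was 0.15 (standard error 0.06, edgeR unadjusted p = 0.0259).

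At the low end of the selection, Slc36a2 had 62 counts over the 6 libraries, Slc38a3 67 and Slc4a8 71. Just below the threshold were Slc38a4 and Slc23a3 with 57 counts each and Slc6a17 with 53. Slc36a2, a proton-coupled carrier of small amino acids, had 2, 14 and 17 counts in KO and 15, 0 and 14 counts in WT. Slc38a3, a glutamine carrier, had 6, 8 and 13 counts in KO and 7, 28 and 5 counts in WT. At such counts the values of 1 library decide a genotype's mean, and Slc4a8, a sodium bicarbonate carrier, had a 95% interval from -1.92 to 0.84.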

How the data were processed

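Per the labels' protocols, 6 libraries were built from total RNA of BMDMs using a VAHTS Universal V6 kit. The authors deposited raw read counts per gene; fastp, HISAT2 and HTSeq with genome build mm10 are named per the submitters' processing notes (versions, annotation release and strand setting: not given in the sources used here). Replicates of a genotype differed by 11.8 to 35.6 chi-square per degree of freedom over the counts of all tested genes, more than counting error gives. Each library was counted once. The values do not show whether the libraries came from separate mice or cultures.

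Counts were fitted with edgeR 4.0.16 in R 4.3.3: TMM factors, filterByExpr by genotype (minimum count 10), robust quasi-likelihood F test in legacy mode, KO minus WT, Benjamini-Hochberg adjustment over 12605 genes at 0.05. A standard error is |log2 fold change| over the root of its F value. CPM use TMM-scaled library sizes; a count of 3 is 0.0730 to 0.0813 CPM, for counting error only. Exon lengths come from GENCODE M21 (GRCm38), gene coordinates from RefSeq GRCm38.p6. The steps were tested on simulated counts that gave every gene the same dispersion. That does not show how well differences are found in genes that vary more. Alternatives were DESeq2 1.42.0, limma voom (3.58.1), other normalizations and filters, no robust estimation, a replicate block, leaving out each library and, added later, KO 1 with WT 2.

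The members, classes and lists were chosen with earlier results of these data known. Named genes were the 15 with the smallest p at 1 CPM or more, the 10 highest per length, the 2 with the smallest p in each class of at least 4, those nearest the count threshold, related genes with an unadjusted p under 0.05, and Trmt61a; others were chosen after their values were seen. One gene that this rule names is not reported here.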

Additional observations from a re-analysis of the deposited data

How the results depend on the processing

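The number of solute carriers called was 0 with each alternative except leaving out KO 1 and WT 2 together, where it was 1 (Slc15a2). Genes called over the whole table numbered 4, with 16 in DESeq2, 8 with the replicate block and from 3 to 5 when a library was left out; the cause was not tested. The labels do not say whether equal replicate numbers pair libraries. Deviations from the genotype means correlated at 0.04, -0.22 and 0.44 for numbers 1, 2 and 3 over all tested genes at 1 CPM or more. There KO 1 correlated best with WT 2 (0.50). Over the members at that level the equal numbers gave 0.18, -0.06 and 0.42, and KO 1 with WT 2 gave 0.26. The 0.42 of KO 3 with WT 3 was the highest of any such pair. The block changed no call among the solute carriers. The median log2 fold change of the members stayed between -0.016 and 0.0074. Fold changes of single genes were followed for 47 genes, the tested named ones with Slc15a2 and Slc13a3, and most carriers were not among them. Of these 47, 12 changed sign when 1 library was left out. Their log2 fold changes then ranged from -0.037 to 0.059 for Slc6a6, -0.048 to 0.087 for Slc43a2, -0.048 to 0.090 for Slc37a2, -0.033 to 0.10 for Slc9a9, -0.17 to 0.10 for Slc46a3, -0.00025 to 0.13 for Slc8b1, -0.047 to 0.20 for Slc31a1, -0.020 to 0.062 for Slc41a2, -0.044 to 0.43 for Slc29a2, -0.44 to 0.67 for Slc36a2, -0.12 to 1.46 for Slc15a2 and -0.80 to 0.33 for Slc13a3. Without KO 1 and WT 2, Slc6a6 was at -0.0026, Slc29a3 at 0.0048 and Slc15a2 at 1.65. With 30 counts in place of 60 the selection held 183 genes, and with 120 it held 151. Depth limits most the 22 genes below 1 CPM.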
